A study of Mus musculus with 6 samples.

Results

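The genes Gzma, Gzmb, Prf1, Nkg7, Ccl5, Ifng, Xcl1 and Klrd1 were followed through 6 droplet single-cell RNA libraries of leukaemic mouse bone marrow. They were listed by symbol as effector genes of T cells and natural killer (NK) cells, by a rule that uses no measured value, though the list was drawn up with earlier results of these data known. All 8 had 1 row in each library's matrix, which lists 31053 genes in the 4 MA9 libraries and 32285 in the 2 HM libraries. Cytotoxic lymphocytes kill by releasing granules toward a target cell: perforin, made from Prf1, opens the target membrane, and granzymes, the serine proteases made from Gzma and Gzmb, enter and start cell death. The same cells secrete interferon gamma (Ifng), which acts on the antigen presentation of the target and on macrophages, and the chemokines Ccl5 and Xcl1, which draw other leukocytes and cross-presenting dendritic cells. In mouse marrow these transcripts are known mainly from NK cells and from memory and effector CD8 T cells, which are a small part of the tissue.

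Each library is 1 group, so no difference between groups has a replicate check, and every interval below covers counting error only. The 4 MA9 libraries are marrow of a model of acute myeloid leukaemia driven by the fusion gene MLL-AF9, and the 2 HM libraries are marrow of a model driven by Hoxa9-Meis1. The MA9 libraries are labelled Shp-1 Δ/Δ with AraC and Dox, Shp-1 f/f with AraC and Dox, Shp-1 Δ/Δ with PBS, and Shp-1 f/f with PBS. The HM libraries received AraC and Dox or PBS, and both are titled Shp-1 f/f, while their genotype field names Hoxa9-Meis1 alone. Shp-1 is the tyrosine phosphatase made from Ptpn6, which acts downstream of inhibitory receptors in lymphocytes and myeloid cells. Per the labels, the leukaemias were made by bringing MLL-AF9 or Hoxa9-Meis1 into mouse embryonic stem cells, the marrow was flushed and its red cells were lysed. The labels do not say how many animals went into a library, which cells carry the deletion, or whether the T cells do, and doses and times are not given. The title of the series names chemotherapy and immune surveillance through Shp-1 and Pfkp, and the gene set bears on the second of these.

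After filtering, 8244 to 9204 cells per MA9 library remained, with a median of 6563.5 to 9876 unique molecular identifiers (UMIs, 1 per captured transcript) per cell. HM AraC + Dox kept 4598 cells at a median of 6733.5 UMIs, and HM PBS kept 2726 at 3991.5. HM PBS stood apart, because 74.7% of its deposited barcodes were over the limit of 10% mitochondrial UMIs. Between 21 and 34 barcodes were shared by any 2 MA9 libraries, 37 by the HM libraries and 0 across the models. The barcodes and the number of genes listed thus set the MA9 and HM libraries apart along with the model. The part of such differences in MA9 against HM levels was not tested, and this design cannot tell it from that of the model. Ptpn6 over all kept cells had 43.5 CPM (the gene's UMIs per 1000000 UMIs of the same cells) in Δ/Δ AraC + Dox, 57.7 in f/f AraC + Dox, 172 in Δ/Δ PBS and 186 in f/f PBS. The Ptpn6 level of the library labelled Δ/Δ PBS was therefore above that of the library labelled f/f AraC + Dox. The labels do not give the deleted part of the gene, and a 3′ tag outside it checks nothing, so Δ/Δ and f/f below are the labels of the libraries.

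The promoter windows of the granule genes are shown because these genes are read out together below. RefSeq annotation of GRCm38.p6 gave the 250 bases before the transcription start for 6 of the 8 genes, without Ccl5 and Klrd1. Capitals mark matches, on either strand, to TGTGGT, a core letter string bound by Runx factors, and to GGTGTG, a core string bound by T-box factors such as T-bet and Eomes. In GRCm38, the build of the counts, Gzma (ENSMUSG00000023132) lies at chr13:113093825-113100981 and Gzmb (ENSMUSG00000015437) at chr14:56258838-56262260, both on the minus strand, and Prf1 (ENSMUSG00000037202) lies at chr10:61297833-61304680 and Nkg7 (ENSMUSG00000004612) at chr7:43437073-43438249, both on the plus strand.
Gzma, chr13:113100982-113101231: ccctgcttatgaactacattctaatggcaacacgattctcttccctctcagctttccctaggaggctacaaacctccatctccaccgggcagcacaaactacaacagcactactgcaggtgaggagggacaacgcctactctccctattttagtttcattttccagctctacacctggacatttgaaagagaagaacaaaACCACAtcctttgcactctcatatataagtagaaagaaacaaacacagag
Gzmb, chr14:56262335-56262584: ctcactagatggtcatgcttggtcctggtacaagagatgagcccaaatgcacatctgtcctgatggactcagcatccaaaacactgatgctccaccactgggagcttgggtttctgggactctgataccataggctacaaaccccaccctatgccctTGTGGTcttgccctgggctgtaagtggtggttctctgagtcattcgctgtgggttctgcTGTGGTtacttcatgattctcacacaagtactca
Prf1, chr10:61297586-61297835: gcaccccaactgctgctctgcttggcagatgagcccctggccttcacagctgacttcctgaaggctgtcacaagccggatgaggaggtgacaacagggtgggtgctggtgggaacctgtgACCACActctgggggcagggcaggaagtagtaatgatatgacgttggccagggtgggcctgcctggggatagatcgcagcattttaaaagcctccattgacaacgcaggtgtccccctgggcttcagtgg
Nkg7, chr7:43436888-43437137: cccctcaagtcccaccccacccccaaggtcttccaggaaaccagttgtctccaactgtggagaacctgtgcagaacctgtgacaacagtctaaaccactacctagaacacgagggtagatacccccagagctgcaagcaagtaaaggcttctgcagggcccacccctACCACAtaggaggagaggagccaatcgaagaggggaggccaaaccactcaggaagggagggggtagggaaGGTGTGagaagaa
The string TGTGGT was present in 5 of the 6 windows and in 14% of all 32851 RefSeq windows of this length. It began 50 bases before the start of Gzma, 130 before that of Prf1, 83 before that of Nkg7, and 93 and 34 before that of Gzmb. The string GGTGTG was present in 2 of the 6 windows, those of Nkg7 and Xcl1, against 16.3% of all windows. The string GAGGAA, a core bound by the myeloid factor PU.1, was in 0 of the 6 windows and in 23.3% of all windows. No 2 matches overlapped, and a match is a description of letters, not of binding. The gene spans above are those of GENCODE and the windows those of RefSeq, and some starts differ. The Nkg7 window ends at chr7:43437137, past the GENCODE start at 43437073, and its GGTGTG match lies past that start. The Gzmb window begins at chr14:56262335, beyond the GENCODE gene end at 56262260.

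T cells were taken as cells with at least 2 UMIs of Cd3d, Cd3e and Cd3g together, the genes of the T cell receptor's signalling chains. The gate held 198 cells in Δ/Δ AraC + Dox (2.18% of kept cells), 46 in f/f AraC + Dox (0.50%), 339 in Δ/Δ PBS (3.71%), 67 in f/f PBS (0.813%), 838 in HM AraC + Dox (18.2%) and 43 in HM PBS (1.58%). T cells were thus a small class in the MA9 libraries and in HM PBS, and a large one in HM AraC + Dox. All 10 check genes of T cells (Trac, Trbc1, Trbc2, Cd247, Lat, Cd28, Cd5, Cd4, Foxp3 and Trdc) were detected in the gate of each library, with a summed level of 1415 to 2888 CPM. Trac, the alpha chain constant gene, had 231 to 352 CPM in cells with 3 or more Cd3 UMIs in the 6 libraries. In HM AraC + Dox the 151 cells with exactly 2 Cd3 UMIs had 25.5 CPM of Trac and 155 CPM of Ccl5, against 321 CPM of Trac and 1246 CPM of Ccl5 in the 687 cells with 3 or more. In the other 5 libraries, cells just inside the limit were 5 to 24 in number and had 1784 to 5600 CPM of Ccl5. Cells just outside it, with 1 Cd3 UMI, had 4.15 to 251 CPM of Ccl5 over the 6 libraries.

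Transcripts of neutrophils were present in the T cell gate at levels that differed between libraries. The 6 neutrophil markers (Ngp, Camp, Ltf, Retnlg, Mmp8 and Cd177) summed to 278.5 CPM in Δ/Δ AraC + Dox T cells, with Mmp8 at 0, and to 15779 CPM in f/f AraC + Dox T cells, with all 6 detected. They summed to 379 CPM in Δ/Δ PBS, with Retnlg and Mmp8 at 0, 3160 in f/f PBS, 13858 in HM AraC + Dox and 25716 in HM PBS T cells. Both libraries labelled Δ/Δ were thus low and the other 4 higher. The part of this difference in the levels below was not tested beyond leaving out T cells with 1% or more of such UMIs, which were 0.505%, 13.0%, 0.295%, 4.48%, 8.83% and 14.0% of T cells in the same order of libraries. Markers of basophils, macrophages, B cells and plasmacytoid dendritic cells each summed to at most 161 CPM in the gate.

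Gzma had 31.3 CPM (95% exact Poisson interval 19.6 to 47.3) in Δ/Δ AraC + Dox T cells, 502 (415 to 601) in f/f AraC + Dox, 114 (96.3 to 134) in Δ/Δ PBS, 65.2 (38.0 to 104) in f/f PBS, 10.4 (8.40 to 12.7) in HM AraC + Dox and 12.3 (1.49 to 44.3) in HM PBS. The library f/f AraC + Dox was the highest, with an interval apart from the next, and the 2 HM libraries were the lowest. A few cells carried this gene: in f/f AraC + Dox its 118 UMIs lay in 6 of 46 T cells, and 1 cell held 50 of them. In f/f PBS 17 UMIs lay in 4 of 67 T cells, in Δ/Δ AraC + Dox 22 UMIs in 6 of 198, and in Δ/Δ PBS 144 UMIs in 26 of 339.

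Gzmb was carried by more cells and differed less between libraries. It had 145 CPM (118 to 176) in Δ/Δ AraC + Dox T cells, 251 (191 to 324) in f/f AraC + Dox, 133 (114 to 155) in Δ/Δ PBS, 238 (182 to 305) in f/f PBS, 89.5 (83.5 to 95.9) in HM AraC + Dox and 141 (89.4 to 212) in HM PBS. Both MA9 libraries labelled f/f lay above both labelled Δ/Δ, without overlap of intervals. Between 24.8% and 44.8% of T cells had a Gzmb UMI.

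Prf1, the perforin gene, was low throughout. It had 45.5 CPM (31.1 to 64.2) in Δ/Δ AraC + Dox T cells, 80.8 (48.6 to 126) in f/f AraC + Dox, 61.1 (48.2 to 76.3) in Δ/Δ PBS, 72.9 (43.9 to 114) in f/f PBS, 7.29 (5.64 to 9.28) in HM AraC + Dox and 12.3 (1.49 to 44.3) in HM PBS. The intervals of the 4 MA9 libraries overlapped each other, and that of HM AraC + Dox lay below all of them. Nkg7, a membrane protein of cytotoxic granules that takes part in their release, had 948 CPM (877 to 1022) in Δ/Δ AraC + Dox T cells, 1088 (959 to 1230) in f/f AraC + Dox, 1002 (948 to 1059) in Δ/Δ PBS, 1568 (1420 to 1728) in f/f PBS, 542 (527 to 558) in HM AraC + Dox and 816 (683 to 967) in HM PBS. The library f/f PBS was the highest and HM AraC + Dox the lowest, each apart from its neighbour, and the 4 between them overlapped in sequence.

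Ccl5 was the most abundant of the 8 in T cells of all 6 libraries. It had 3255 CPM (3123 to 3391) in Δ/Δ AraC + Dox T cells, 4761 (4486 to 5048) in f/f AraC + Dox, 4548 (4431 to 4667) in Δ/Δ PBS, 8333 (7986 to 8691) in f/f PBS, 849 (830 to 868) in HM AraC + Dox and 1448 (1269 to 1645) in HM PBS. The order ran from f/f PBS down to HM AraC + Dox, and only f/f AraC + Dox and Δ/Δ PBS, next in that order, overlapped. With 3 or more Cd3 UMIs as the limit, Ccl5 had 1246 CPM in HM AraC + Dox and 1376 in HM PBS. Xcl1, whose product attracts dendritic cells that carry its receptor Xcr1, had 62.5 CPM (45.4 to 83.9) in Δ/Δ AraC + Dox T cells, 153 (107 to 212) in f/f AraC + Dox, 157 (136 to 180) in Δ/Δ PBS, 368 (298 to 450) in f/f PBS, 356 (344 to 369) in HM AraC + Dox and 209 (144 to 291) in HM PBS. Xcl1 had HM AraC + Dox beside f/f PBS at the top, with overlapping intervals, and Δ/Δ AraC + Dox alone at the bottom.

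Ifng had 34.1 CPM (21.8 to 50.7) in Δ/Δ AraC + Dox T cells, 72.3 (42.1 to 116) in f/f AraC + Dox, 65.8 (52.4 to 81.6) in Δ/Δ PBS, 127 (87.1 to 178) in f/f PBS, 11.5 (9.39 to 13.9) in HM AraC + Dox and 92.0 (51.5 to 152) in HM PBS. The 4 highest libraries, from f/f PBS to Δ/Δ PBS, overlapped in sequence, Δ/Δ AraC + Dox lay below Δ/Δ PBS without overlap but overlapped f/f AraC + Dox, and HM AraC + Dox lay below all the others. Klrd1, the CD94 chain that pairs with NKG2 receptors to read the class I molecule Qa-1, had 205 CPM (173 to 241) in Δ/Δ AraC + Dox T cells, 225 (169 to 295) in f/f AraC + Dox, 183 (160 to 208) in Δ/Δ PBS, 284 (223 to 356) in f/f PBS, 86.5 (80.6 to 92.8) in HM AraC + Dox and 73.6 (38.0 to 129) in HM PBS. The MA9 libraries overlapped in sequence and lay above both HM libraries. The 8 genes summed to 4726 CPM in Δ/Δ AraC + Dox T cells, 7133 in f/f AraC + Dox, 6265 in Δ/Δ PBS, 11056 in f/f PBS, 1953 in HM AraC + Dox and 2803 in HM PBS, and no 2 neighbours in this order overlapped. These orders are those at the limit of 2 Cd3 UMIs. With 3 or more, HM AraC + Dox and HM PBS had 1246 and 1376 CPM of Ccl5, and 633 and 863 of Nkg7. In the same order they had 132 and 149 of Gzmb, 18.1 and 96.7 of Ifng, 13.7 and 14.9 of Gzma, and 10.8 and 14.9 of Prf1. Xcl1 had 539 and 171, and Klrd1 131 and 66.9. Overlap of intervals was not tested at that limit.

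**Figure D1:**
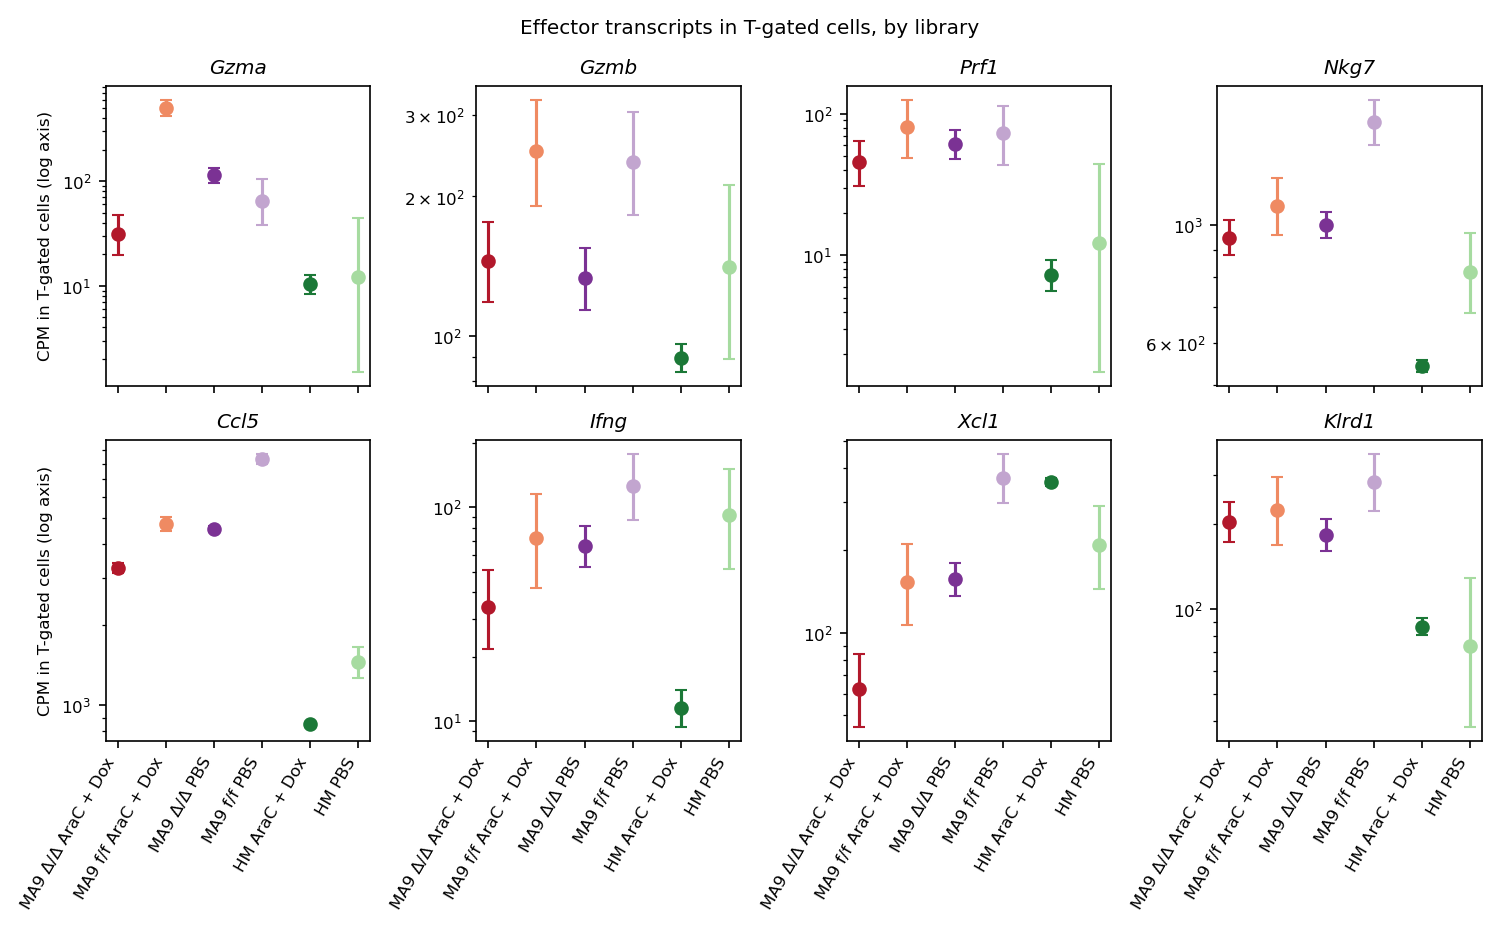
Level of each effector gene in T-gated cells of the 6 libraries, in CPM on a log axis; points are CPM of 1 library each and bars are exact Poisson 95% intervals, which cover counting error only. Gzma is highest in f/f AraC + Dox at 502 CPM, and Ccl5 in f/f PBS at 8333 CPM.

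Free RNA in droplets gives a background that was read from neutrophil-gated cells (1% or more of UMIs from the neutrophil markers), which should lack these genes. After thinning each cell to 1000 UMIs, 44.1% to 89.6% of T cells had a Ccl5 UMI, against 0% to 2.26% of neutrophil-gated cells. For Gzmb the shares were 9.76% to 19.4% of T cells, against 0% to 0.545%. Unthinned, 62.8% to 89.6% of T cells had a Ccl5 UMI, with median depths of 2675 to 5854.5 UMIs per T cell. In 42 of the 48 pairs of gene and library the interval of the T cell share lay above that of the neutrophil-gated share. The 6 pairs where it did not were Gzma in Δ/Δ AraC + Dox, HM AraC + Dox and HM PBS, and Prf1, Ifng and Klrd1 in HM PBS, so these were not detectable above background by cell share at this depth. The same count was not made over all genes, so it does not set these genes apart from others expressed in T cells. Nkg7 was the exception among the backgrounds, with 2.12% to 26.1% of neutrophil-gated cells.

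Most transcripts of these genes lay in T cells or in NK-like cells, which were defined by at least 2 UMIs of Ncr1, Klrb1c, Klre1 and the Ly49 genes Klra4, Klra7, Klra8 and Klra9 with no Cd3 UMI. NK-like cells numbered 16 in Δ/Δ AraC + Dox, 7 in f/f AraC + Dox, 8 in Δ/Δ PBS, 7 in f/f PBS, 24 in HM AraC + Dox and 8 in HM PBS. In 41 of the 48 pairs of gene and library, over 50% of the gene's UMIs lay in these 2 gates. The 7 exceptions were Nkg7 in all 6 libraries and Gzmb in HM AraC + Dox.

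Gzma divided differently from Gzmb between the 2 lymphocyte gates. NK-like cells held 66.4% of all Gzma UMIs in Δ/Δ AraC + Dox, 4.76% in f/f AraC + Dox, 26.0% in Δ/Δ PBS, 0% in f/f PBS, 62.1% in HM AraC + Dox and 97.6% in HM PBS. They held at most 13.8% of the Gzmb UMIs in any library. In HM PBS, 4 of the 8 NK-like cells carried 166 Gzma UMIs, and the 43 T cells together carried 2. Gzma thus had 2671 CPM in HM PBS NK-like cells and 12.3 in its T cells. Xcl1 in HM PBS also lay mainly in NK-like cells, at 74.1% of its UMIs, against 23.1% in T cells. In HM AraC + Dox the 24 NK-like cells had 3765 CPM of Gzma, 1277 of Gzmb, 448 of Prf1 and 2857 of Xcl1. The NK-like gate also held neutrophil marker RNA, at 104 CPM in Δ/Δ AraC + Dox, 298 in f/f AraC + Dox, 51.9 in Δ/Δ PBS, 11341 in f/f PBS, 12056 in HM AraC + Dox and 4731 in HM PBS, and its part in these shares was not tested. In f/f PBS the NK markers of that gate summed to 508 CPM, below the 871 of its T cells, and 4 of its 7 cells had none of the genes other than Nkg7. With 7 or 8 cells in 4 of the libraries, NK-like levels describe single cells rather than a class.

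**Figure D2:**
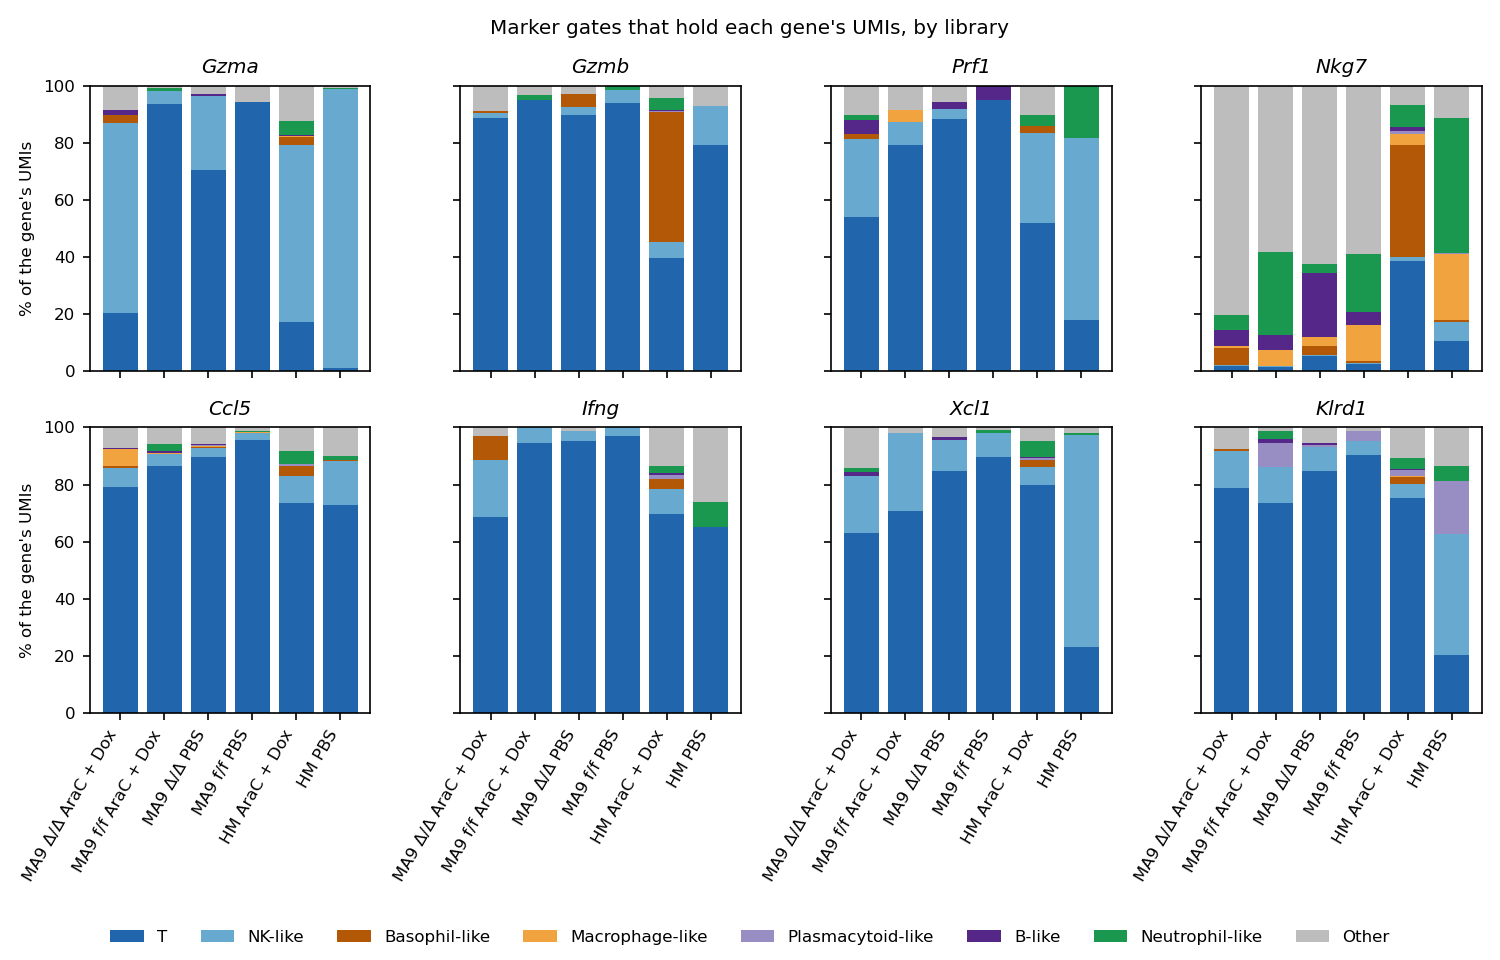
Share of each gene's UMIs, in percent of the library's total, that lay in cells of each marker gate, 1 stacked bar per library. Gzmb in HM AraC + Dox and Nkg7 in every library have large parts outside the T and NK-like gates.

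Gzmb in HM AraC + Dox had a second source in cells gated by basophil genes. Cells with at least 3 UMIs of Mcpt8, Prss34, Cpa3, Fcer1a and Ms4a2 held 934 of its 2042 UMIs (45.7%), in 89 of 364 such cells. T cells of the same library held 39.7%. The basophil-gated cells of that library had 12349 UMIs of Mcpt8 and 17860 of Prss34, both basophil proteases, and a median of 27086 UMIs per cell. Basophil-gated cells of Δ/Δ AraC + Dox held 1 Gzmb UMI and those of Δ/Δ PBS held 9, while f/f AraC + Dox, f/f PBS and HM PBS had 0 in 11, 101 and 3 such cells.

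Nkg7 was mostly a myeloid transcript in these marrows. T and NK-like cells held 2.11% of its UMIs in Δ/Δ AraC + Dox, 1.81% in f/f AraC + Dox, 5.63% in Δ/Δ PBS, 2.81% in f/f PBS, 40.0% in HM AraC + Dox and 17.2% in HM PBS. In neutrophil-like and ungated cells its level followed the primary granule genes Elane, Prtn3 and Mpo, which encode the proteases and peroxidase of early neutrophil granules. Cells with 10 or more UMIs of those 3 genes had 404 CPM of Nkg7 in Δ/Δ AraC + Dox, 249 in f/f AraC + Dox, 317 in Δ/Δ PBS, 359 in f/f PBS, 178 in HM AraC + Dox and 175 in HM PBS. Cells with none of them had 5.24 to 36.0 CPM. The cells with 10 or more were also deeper, at a median of 13389.5 against 1962 UMIs per cell in Δ/Δ AraC + Dox. Gzma, Gzmb and Ifng were at or below 0.0383 CPM in the cells with 10 or more in the 4 MA9 libraries. In macrophage-gated cells (C1qa, C1qb, C1qc and Vcam1) Nkg7 had 247 to 1200 CPM.

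**Figure D3:**
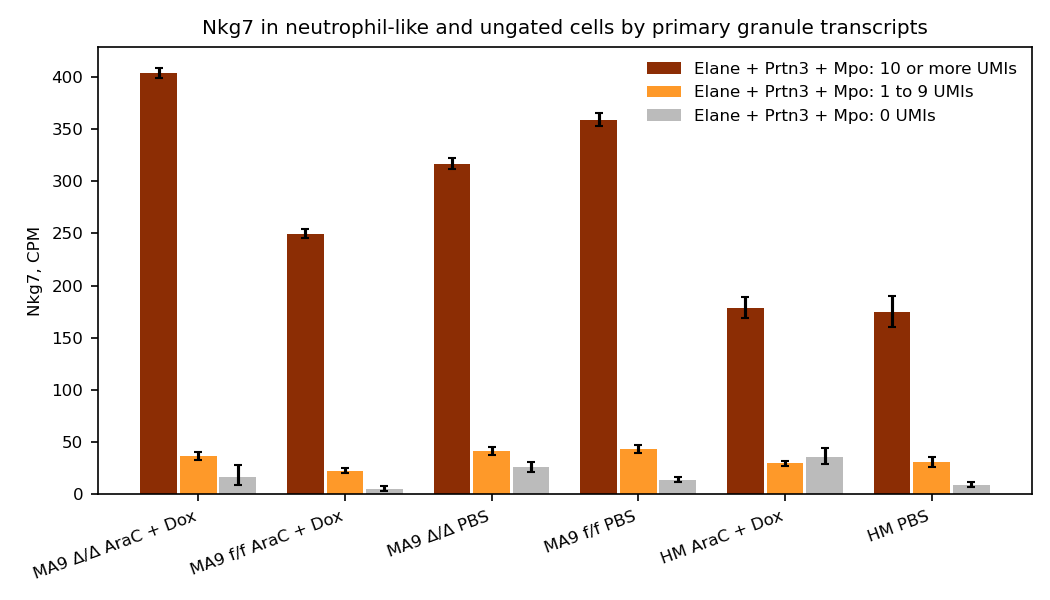
Nkg7 level in neutrophil-like and ungated cells, in CPM from 0, split by the summed UMIs of Elane, Prtn3 and Mpo in the cell; bars are 1 library each and error bars are exact Poisson 95% intervals. Cells with 10 or more of these UMIs have 175 to 404 CPM, above the other 2 classes in all 6 libraries.

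Over all kept cells, the library labelled Δ/Δ PBS had more effector transcript than that labelled f/f PBS. All 8 log2 ratios were above 0, and 3 genes were called, meaning at least 2-fold apart with an interval that excludes 0. Gzma had 2.35 CPM in Δ/Δ PBS and 0.297 in f/f PBS, a log2 ratio of 2.99 (95% interval 2.29 to 3.77). Prf1 had 1.0 and 0.330 CPM in the same order, a log2 ratio of 1.60 (0.89 to 2.38). Klrd1 had 3.15 CPM in Δ/Δ PBS and 1.35 in f/f PBS, a log2 ratio of 1.22 (0.86 to 1.59). Of 13942 genes with at least 20 UMIs in the pair, 17.0% were called, 11.4% as higher and 5.57% as lower. Nkg7 had a log2 ratio of 0.08, which became -0.08 with median-of-ratios scaling, and the median of all genes was 0.18. In such a total alone, the number of T cells and the RNA per T cell cannot be told apart, and T-gated cells were 3.71% of kept cells in Δ/Δ PBS and 0.813% in f/f PBS.

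Within T cells the direction was the other way for 7 of the 8 genes. In Δ/Δ PBS over f/f PBS T cells, Xcl1 was the 1 gene called, lower with a log2 ratio of -1.23 (-1.59 to -0.86), where 6.44% of 6976 genes were called, 3.5% as higher and 2.94% as lower. Ccl5 had a log2 ratio of -0.87 (-0.95 to -0.80), Ifng -0.94 (-1.54 to -0.31) and Gzmb -0.84 (-1.26 to -0.39), all short of 2-fold. Gzma alone was above 0, at 0.81 (0.08 to 1.63). The direction depended on the gate: with 1 Cd3 UMI as the limit, Ccl5 had -0.00, Nkg7 0.08 and Prf1 0.63. Taken by class, Gzma was higher in Δ/Δ PBS Cd8 T cells at 3.09 (1.20 to 6.16), with 143 CPM against 16.7 in f/f PBS from 2 UMIs. In T cells without Cd8 it had -0.46 (-1.34 to 0.49), with 77.0 CPM in Δ/Δ PBS and 106 in f/f PBS.

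After AraC and Dox the same contrast had all 8 ratios below 0 in T cells. In Δ/Δ AraC + Dox over f/f AraC + Dox T cells, 3 genes were called lower, where 9.3% of 5578 genes were called, 3.96% as higher and 5.34% as lower. Gzma had 31.3 CPM in Δ/Δ and 502 in f/f, a log2 ratio of -4.00 (-4.73 to -3.34), and -3.76 without the T cell of each library that held most of its UMIs. Xcl1 had a log2 ratio of -1.29 (-1.96 to -0.61). Ifng had -1.08 (-2.04 to -0.10) from 24 and 17 UMIs, and -0.77 without the top cell of each library, where its call was lost. Without T cells rich in neutrophil markers, 5 genes were called lower, and Ccl5 moved from -0.55 to -0.93. Over all kept cells, 0 of the 8 were called, where 20.4% of 13960 genes were, 13.6% as higher and 6.81% as lower, and the ratios ran from -0.59 for Gzma to 0.99 for Klrd1.

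AraC and Dox were set against PBS within each genotype label, and these 2 comparisons share libraries with the 2 above. In f/f AraC + Dox over f/f PBS T cells, Gzma was higher at 2.94 (2.20 to 3.77) and Xcl1 lower at -1.27 (-1.86 to -0.70), where 10.5% of 3494 genes were called, 6.9% as higher and 3.58% as lower. Ccl5 had -0.81 (-0.91 to -0.70) and Nkg7 -0.53 (-0.76 to -0.30). In Δ/Δ AraC + Dox over Δ/Δ PBS T cells, Gzma was lower at -1.87 (-2.59 to -1.22) and Xcl1 lower at -1.33 (-1.83 to -0.85), where 3.42% of 7672 genes were called, 1.75% as higher and 1.67% as lower. Xcl1 was thus lower with AraC and Dox under both labels, and Gzma went opposite ways.

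Over all kept cells the chemokine and cytokine genes were lower with AraC and Dox under both labels. In f/f AraC + Dox over f/f PBS, Ccl5 had -1.13 (-1.23 to -1.03), Ifng -1.24 (-2.15 to -0.37) and Xcl1 -1.39 (-1.90 to -0.89), where 6.69% of 13402 genes were called, 1.98% as higher and 4.71% as lower. Gzma was called higher there, at 2.49 (1.77 to 3.29). In Δ/Δ AraC + Dox over Δ/Δ PBS, Ccl5 had -1.3 (-1.36 to -1.24), Ifng -1.47 (-2.08 to -0.89), Xcl1 -1.90 (-2.31 to -1.51) and Gzma -1.09 (-1.44 to -0.74), where 9.69% of 14274 genes were called, 3.73% as higher and 5.96% as lower. T cells were 0.50% of kept cells in f/f AraC + Dox and 0.813% in f/f PBS, and 2.18% in Δ/Δ AraC + Dox and 3.71% in Δ/Δ PBS. Fewer T-gated cells thus stood beside the lower totals under both labels.

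In the HM pair, 6 of the 8 ratios in T cells were below 0 and 7 of the 8 over all kept cells were above 0, while Xcl1, Klrd1 and Gzma had the same sign in both. Over all kept cells, 6 of the 8 genes were higher in HM AraC + Dox than in HM PBS, where 27.5% of 12973 genes were called, 17.2% as higher and 10.4% as lower. Gzmb had 39.5 CPM in HM AraC + Dox and 1.95 in HM PBS, a log2 ratio of 4.34 (3.81 to 4.92), with the basophil-gated cells described above in its total. Ccl5 had 202 and 21.8 CPM in the same order, a ratio of 3.21 (3.05 to 3.38), and Xcl1 78.3 and 9.88, a ratio of 2.99 (2.75 to 3.23). T-gated cells were 18.2% of kept cells in HM AraC + Dox and 1.58% in HM PBS. Gzma was not among the 6, at 10.5 CPM in HM AraC + Dox and 11.4 in HM PBS, a ratio of -0.13 (-0.38 to 0.13).

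In HM T cells the called gene was Ifng, with 11.5 CPM in HM AraC + Dox and 92.0 in HM PBS, a log2 ratio of -3.00 (-3.79 to -2.11), where 13.6% of 10070 genes were called, 3.49% as higher and 10.1% as lower. The HM PBS value rests on 15 UMIs in 8 of 43 cells, and the ratio was -2.49 without the top cell of each library. The median of all genes in this pair was -0.43, and -0.29 with median-of-ratios scaling. Ccl5 had -0.77 (-0.96 to -0.58) and Nkg7 -0.59 (-0.84 to -0.33), and with 3 Cd3 UMIs as the limit Ccl5 had -0.14. Xcl1 was above 0 at 0.77 (0.29 to 1.3) and reached 1.66 with that limit. Gzma and Prf1 rest on 2 UMIs each in HM PBS T cells, with log2 ratios of -0.24 (-2.13 to 2.83) and -0.75 (-2.66 to 2.33).

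**Figure D4:**
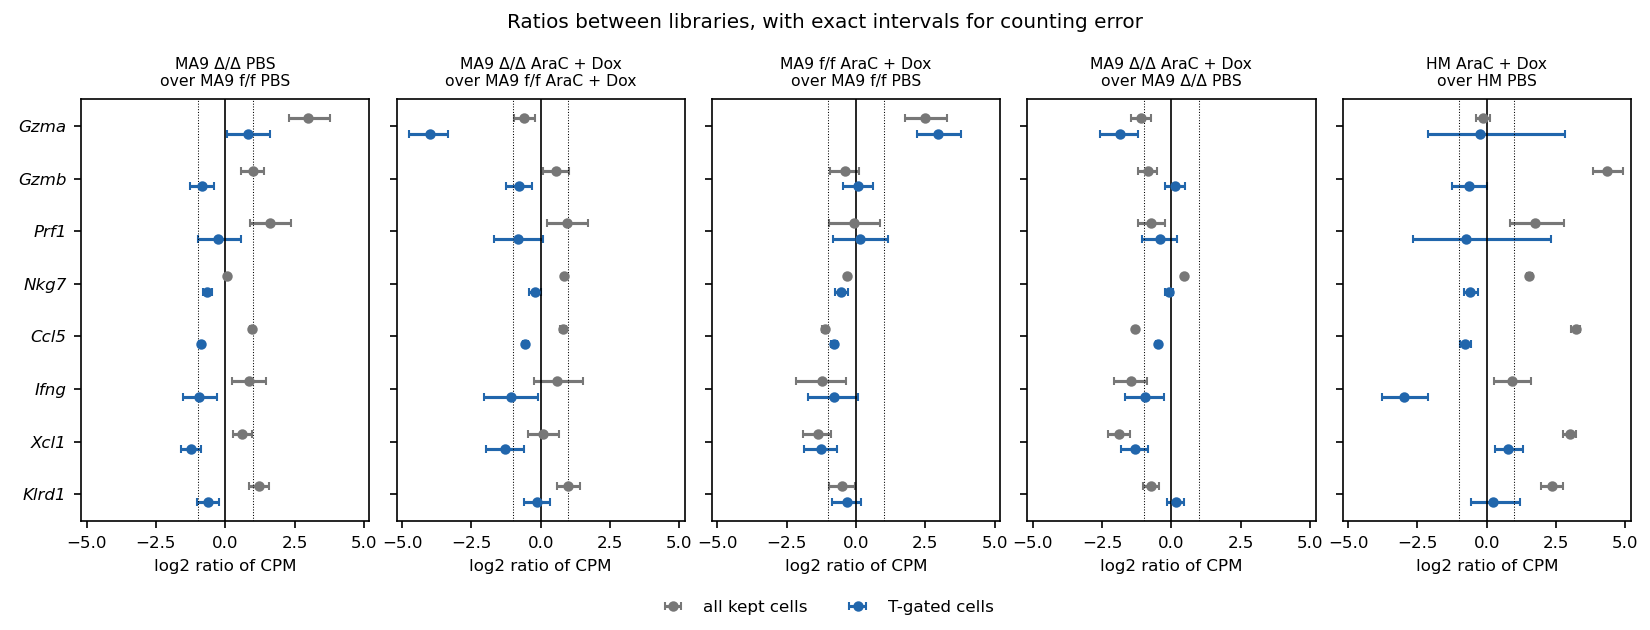
Log2 ratios of CPM with exact 95% intervals for counting error in 5 pairs of libraries, over all kept cells (grey) and within T-gated cells (blue); dotted lines mark 2-fold. In Δ/Δ AraC + Dox over f/f AraC + Dox all 8 ratios are below 0 in T cells, from -4.00 for Gzma to -0.14 for Klrd1.

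Other genes of T and NK cells, in 7 lists with 75 genes in all, were read in the same T cell sums. In the list of naive and memory genes, 7 of 10 compared were called higher in Δ/Δ PBS over f/f PBS T cells and 0 lower, with a list median of 1.38 against 0.08 over all genes. Of all genes, 3.5% were called higher and 2.94% lower. Il7r, the receptor for the survival cytokine IL-7, had 287 CPM in Δ/Δ PBS and 49.9 in f/f PBS T cells, a log2 ratio of 2.53 (1.73 to 3.45). Ccr7, the receptor that leads T cells into lymph nodes, had 64.2 and 15.3 CPM in the same order, a ratio of 2.07 (0.65 to 3.98), and S1pr1, the receptor for leaving them, had 2.17 (0.76 to 4.08). Lef1, Klf2 and Dapl1 were among the others called higher.

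In Δ/Δ AraC + Dox over f/f AraC + Dox T cells, 7 of 10 naive and memory genes were again called higher and 0 lower, with a list median of 1.46 against 0.00 over all genes. Of all genes, 3.96% were called higher and 5.34% lower. Dapl1 had 153 UMIs in Δ/Δ and 0 in f/f T cells. Tcf7, a factor of naive and memory T cells, had 165 CPM in Δ/Δ and 51.0 in f/f T cells, a log2 ratio of 1.69 (0.83 to 2.69), and Satb1 had 1.66 (1.02 to 2.37). In HM AraC + Dox over HM PBS T cells 4 of 10 were called higher (3.49% of all genes), with Ccr7 at 101 CPM against 6.13 from 1 UMI. With AraC and Dox against PBS, 1 of 6 was called higher under f/f (6.9% of all genes) and 1 of 10 under Δ/Δ (1.75%).

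The list of NK receptor partners went the other way. Of all genes, 2.94% were called lower in Δ/Δ PBS over f/f PBS T cells and 5.34% in Δ/Δ AraC + Dox over f/f AraC + Dox T cells. In Δ/Δ PBS over f/f PBS T cells, 4 of 10 genes of the list were called lower and 0 higher, among them Klrb1c, which encodes NK1.1 in some strains, at -2.14 (-2.59 to -1.68), Klra7 at -1.61 (-2.13 to -1.07), Cd160 at -1.07 (-1.47 to -0.67) and Fcer1g at -1.33 (-1.64 to -1.02). Of the same 10, 4 were called lower in Δ/Δ AraC + Dox over f/f AraC + Dox T cells, among them Klrk1, the activating receptor NKG2D, at -1.09 (-1.54 to -0.63). The others were Klra7, Tyrobp and Fcer1g, and Tyrobp and Fcer1g encode adaptors that myeloid cells also express. Neutrophil markers were higher in f/f than in Δ/Δ T cells in both contrasts, as given above, and their part in Tyrobp and Fcer1g was not tested.

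Of the 3 genes of the cytokine and chemokine list that could be compared in Δ/Δ PBS over f/f PBS T cells, Ccl3 at -2.44 (-3.07 to -1.80) and Ccl4 at -1.83 (-2.30 to -1.35) were called lower. Of all genes, 2.94% were called lower in that contrast. In HM T cells 10.1% of all genes were called lower, and the median of all genes was -0.43. There 3 of 5 genes of that list were called lower, with Ccl4 at -2.22 (-2.75 to -1.66), Tnf at -2.72 (-3.45 to -1.90) and Il10 at -4.69 (-5.65 to -3.67). Of the effector regulators, 4 of 9 were called lower in HM AraC + Dox over HM PBS T cells, beside the same 10.1% of all genes. They were Tbx21, which encodes T-bet, at -3.01 (-4.09 to -1.73), Eomes at -1.60 (-2.47 to -0.58), Stat4 at -1.38 (-2.10 to -0.55) and Irf8 at -1.23 (-1.91 to -0.46). In the 4 MA9 contrasts the regulators had 1 call, Zeb2, lower in f/f AraC + Dox over f/f PBS at -1.99 (-3.75 to -0.55). Of all genes, 3.58% were called lower in that contrast.

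Granule and killing genes beyond the 8 had few calls in T cells. In Δ/Δ PBS over f/f PBS T cells, Gzmm at 1.59 (0.31 to 3.26) and Serpinb9, the inhibitor that guards cells against granzyme B, at 1.83 (0.41 to 3.75) were called higher of 13 compared (3.5% of all genes). Gzmk, a granzyme of memory-like CD8 T cells, was called lower in Δ/Δ AraC + Dox over f/f AraC + Dox at -1.79 (-2.76 to -0.84). That was 1 of 13 compared, where 5.34% of all genes were called lower. In the HM pair 2 of 15 were called higher and 2 lower (3.49% and 10.1% of all genes). In f/f AraC + Dox over f/f PBS T cells 1 of 10 was called higher and 1 lower (6.9% and 3.58%). In Δ/Δ AraC + Dox over Δ/Δ PBS T cells 1 of 13 was called lower (1.67%). Of checkpoint genes, 2 of 9 were called higher and 0 lower in Δ/Δ AraC + Dox over Δ/Δ PBS T cells: Pdcd1, which encodes PD-1, at 2.68 (1.43 to 4.13) from 25 and 7 UMIs, and Tnfrsf9 at 1.12 (0.18 to 2.07). Of all genes, 1.75% were called higher and 1.67% lower in that contrast. The other contrasts had 1 of 8 checkpoint genes higher in Δ/Δ PBS over f/f PBS (3.5% of all genes) and 1 of 8 lower in Δ/Δ AraC + Dox over f/f AraC + Dox (5.34%). They had 1 of 4 each way in f/f AraC + Dox over f/f PBS (6.9% higher and 3.58% lower), and 2 of 9 lower in HM (10.1%). Among receptors and ligands of the 8 genes, 0 were called in the 4 MA9 contrasts of T cells, and in HM H2-T23, the Qa-1 gene read by CD94, was lower at -2.40 (-3.00 to -1.75).

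The 1 contrast with a value from every library was between T cells with at least 1 UMI of Cd8a or Cd8b1 and T cells with none. Cd8 cells were 114 of 198 in Δ/Δ AraC + Dox, 20 of 46 in f/f AraC + Dox, 159 of 339 in Δ/Δ PBS, 26 of 67 in f/f PBS, 414 of 838 in HM AraC + Dox and 11 of 43 in HM PBS. The class without Cd8 UMIs holds CD4 and other T cells as well as Cd8 cells in which the transcript was missed. None of the 8 genes passed the test, edgeR's quasi-likelihood test with library as a block and Benjamini-Hochberg adjustment over 2590 genes. Of all genes 0.27% were called, 7 in number, 0.193% as higher and 0.0772% as lower, and 275 had an unadjusted p under 0.05, among them 3 of the 8. DESeq2 called 74 genes, Nkg7 and Ccl5 among them.

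Nkg7 came nearest. It had 1045 CPM in Cd8 T cells and 763 in T cells without Cd8 in Δ/Δ AraC + Dox, 1381 and 903 in f/f AraC + Dox, 1124 and 844 in Δ/Δ PBS, 1699 and 1458 in f/f PBS, 717 and 380 in HM AraC + Dox, and 997 and 695 in HM PBS. It was higher in the Cd8 class of 6 of 6 libraries, with a log2 difference of 0.58 (SE 0.11) and an adjusted p of 0.0508 by edgeR's quasi-likelihood test with Benjamini-Hochberg adjustment. That p ran from 0.00138 to 0.999 over 14 other settings, 8 of which called it.

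Prf1 had 54.2 CPM in Cd8 T cells and 28.9 in T cells without Cd8 in Δ/Δ AraC + Dox, 87.7 and 76.4 in f/f AraC + Dox, 79.7 and 36.7 in Δ/Δ PBS, 83.7 and 63.7 in f/f PBS, 11 and 3.83 in HM AraC + Dox, and 30.7 and 0 in HM PBS. It was higher in the Cd8 class of 5 of 6 libraries, and in HM PBS it had 2 UMIs against 0, which shows no direction at the floor of 3 counts. The fitted difference was 1.09 on the log2 scale (SE 0.27, in the direction of those 5 of 6 libraries), with an edgeR quasi-likelihood Benjamini-Hochberg adjusted p of 0.0926. It was called in 3 of 9 other settings, with adjusted p from 0.0174 to 0.999.

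Ccl5 was higher in the Cd8 class of 5 of 6 libraries, from 8407 against 2451 CPM in f/f AraC + Dox to 4481 against 4636 in Δ/Δ PBS. Its log2 difference was 0.69 (SE 0.21) and its edgeR quasi-likelihood Benjamini-Hochberg adjusted p 0.255, with calls in 2 of 14 other settings over a range of 5.57e-07 to 0.999. Gzmb had a log2 difference of 0.51 and was higher in 3 of 6 libraries, Klrd1 0.57 in 3 of 6, Ifng 0.37 in 4 of 6 and Xcl1 -0.08 in 3 of 6. Gzma went the other way, at -0.69 (SE 0.40), lower in the Cd8 class of 4 of 6 libraries and higher in Δ/Δ PBS, while HM PBS had 0 UMIs against 2, which shows no direction. Those 5 genes were called under none of the settings tried.

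Beside this contrast, neutrophil markers summed to 58.5 CPM in Cd8 T cells and 697 in T cells without Cd8 in Δ/Δ AraC + Dox, 2883 and 23949 in f/f AraC + Dox, 39.1 and 825 in Δ/Δ PBS, 4770 and 1798 in f/f PBS, 9326 and 18047 in HM AraC + Dox, and 33423 and 20579 in HM PBS. They were thus lower in the Cd8 class of 4 of 6 libraries. With T cells rich in these markers left out, and HM PBS with them for lack of cells, Nkg7 had a log2 difference of 0.55 and an edgeR quasi-likelihood Benjamini-Hochberg adjusted p of 0.0366. NK markers were lower in the Cd8 class of the 4 MA9 libraries, at 156 against 363 CPM in Δ/Δ AraC + Dox, 329 against 764 in f/f AraC + Dox, 210 against 416 in Δ/Δ PBS and 762 against 963 in f/f PBS. In HM they were 61.2 against 26.4 CPM with AraC and Dox and 107 against 102 with PBS.

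Apart from Cd8a and Cd8b1, which chose the classes, Klk8, Rps28 and Rpsa were called higher in Cd8 T cells, and Ikzf2, which encodes the factor Helios of regulatory T cells, and Ifitm2 were called lower. No gene of the 7 lists was called. Eomes, a T-box factor of memory and effector CD8 T cells, came nearest with a log2 difference of 1.41 (SE 0.28) and an adjusted p of 0.0508 by edgeR's quasi-likelihood test with Benjamini-Hochberg adjustment. Ccl4 had 0.88 (SE 0.21) and Satb1 0.85 (SE 0.19). The 8 genes had a median log2 difference of 0.54, against 0.00 over all genes tested.

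Between libraries, 1 of the 8 genes was called higher and 4 lower in Cd8 T cells of Δ/Δ PBS over f/f PBS (7.21% of all genes were called), and 0 of 8 in T cells without Cd8 (4.9%). In Δ/Δ AraC + Dox over f/f AraC + Dox, 4 of 8 were called lower in Cd8 T cells (8.52%) and 2 of 6 in T cells without Cd8 (12.6%). In f/f AraC + Dox over f/f PBS, 1 of 7 was called higher in Cd8 T cells (13.7%), and 1 of 8 higher and 3 lower in T cells without Cd8 (17.2%). Each class had 2 of 8 called lower in Δ/Δ AraC + Dox over Δ/Δ PBS (4.48% in Cd8 T cells and 5.5% in T cells without Cd8). In HM, 1 of 8 was called higher and 1 lower in Cd8 T cells (8.26%), and 3 of 7 lower in T cells without Cd8 (13.9%).

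For some genes the values lay apart between the classes. In Cd8 T cells, Ccl5 was called lower in Δ/Δ PBS over f/f PBS at -1.09 (-1.19 to -0.99) and in Δ/Δ AraC + Dox over f/f AraC + Dox at -1.18 (-1.3 to -1.05). In T cells without Cd8 it had -0.65 (-0.76 to -0.55) and -0.05 (-0.24 to 0.14) in the same contrasts. Under f/f, AraC and Dox over PBS gave Ccl5 -0.19 (-0.32 to -0.05) in Cd8 T cells and -1.57 (-1.75 to -1.40) in T cells without Cd8. In HM, Xcl1 was called higher with AraC and Dox in Cd8 T cells at 1.62 (0.73 to 2.68) and had 0.03 (-0.55 to 0.68) in T cells without Cd8. The difference between classes was not tested, since each contrast is 1 library against 1.

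Within single cells the genes came together in part of the T cells. Nkg7 was left out of these counts, since other cells carry it. At least 3 of the genes other than Nkg7 were detected in 29.3% of T cells in Δ/Δ AraC + Dox, 41.3% in f/f AraC + Dox, 35.7% in Δ/Δ PBS, 58.2% in f/f PBS, 37.6% in HM AraC + Dox and 30.2% in HM PBS. None of the genes other than Nkg7 was detected in 7.46% to 30.2% of T cells. In Cd8 T cells 3 or more were detected in 37.7% to 61.5%, and in T cells without Cd8 in 17.9% to 56.1%, the Cd8 share being the higher in 6 of 6 libraries. Both granzymes were detected together in 4 T cells of Δ/Δ AraC + Dox, 5 of f/f AraC + Dox, 12 of Δ/Δ PBS, 4 of f/f PBS, 22 of HM AraC + Dox and 1 of HM PBS. Gzmb without Gzma was more frequent, in 48, 13, 72, 26, 256 and 11 T cells in the same order. These counts are unthinned and depend on depth. Median UMIs per cell in Cd8 T cells against T cells without Cd8 were 3506.5 against 2170 in Δ/Δ AraC + Dox and 3315 against 3487.5 in f/f AraC + Dox. They were 3644 against 2435.5 in Δ/Δ PBS and 4140 against 3019 in f/f PBS. In HM they were 7260 against 4494 with AraC and Dox and 4161 against 2518 with PBS. The part of depth in the higher Cd8 shares was not tested.

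Across the 12 sums of T cells by library and class, the level of the 8 genes together was described by Pearson's r of log2(CPM + 10), with no test, since the sums share libraries and depth. The CPM of the genes were added before the logarithm, so Ccl5, the most abundant, weighs most. It made up 8333 of the 11056 CPM in f/f PBS T cells and 849 of the 1953 in HM AraC + Dox T cells. Each r below, except that of Ccl5 itself, is thus largely a likeness to Ccl5. Nkg7 followed the other 7 most closely (r = 0.914), then Ccl5 (0.869), Prf1 (0.846), Gzmb (0.814) and Klrd1 (0.813). Ifng had 0.722, Gzma 0.434 and Xcl1 -0.02. Among 9036 other genes, those most like the sum of the 8 were Cd27, a costimulatory receptor of T cells (0.953), Cd160, a receptor of NK and CD8 T cells (0.949), Pitpnm2 (0.938), Sesn3 (0.938) and Zap70, the kinase next to the T cell receptor (0.933). Pygb, Gimap7, Crim1 and Cnn2 followed, at 0.929 to 0.926.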

How the data were processed

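Each of the 6 libraries was a droplet single-cell RNA library made with the Chromium single-cell v2 kit, per the labels' protocols, and the deposited matrices hold UMI counts per gene and barcode, which the authors made with Cell Ranger 3.0.2 on mm10, per the submitters' processing notes. The kit is as labelled and was not checked against the barcodes, of which 0 were shared between MA9 and HM libraries. No normalization had been applied to the deposited counts. Barcodes entered with 500 or more genes and with no more than 10% of UMIs from mitochondrial genes, and doublets were removed with Scrublet in scanpy 1.11.5. Its automatic threshold marked under 0.5% of cells in 4 libraries, where the mean threshold of the other 2 (0.1954) took its place, which was decided with the values in view. Sums were taken per library and marker gate and given as CPM with exact Poisson 95% intervals. Ratios of 2 libraries carry exact Clopper-Pearson intervals conditional on the summed count, for genes with at least 20 UMIs in the pair, and 0 UMIs were set to a floor of 3 counts. These intervals cover counting error only, and with 1 library per group no test between groups was made. Cd8 and no-Cd8 T cell sums were compared with edgeR 4.0.16 (quasi-likelihood test, filterByExpr, TMM, Benjamini-Hochberg over all genes tested, adjusted p under 0.05) in R 4.3.3, with library as a block, since both sums come from the same library. The correlation of the 2 sums' deviations ran from 0.000152 to 0.865 over the libraries. DESeq2 1.42.0 was an alternative. The scripts were tested on simulated data. The text names the 8 genes, genes of 7 lists, the 10 genes most like the 8 in T cell sums and the genes called in the Cd8 comparison, and some items are not reported here. The members and lists were chosen with earlier results of these data known.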

Additional observations from a re-analysis of the deposited data

Results flagged for a closer look

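Gzma, the granzyme A gene, drew attention because AraC and Dox over PBS went opposite ways under the 2 genotype labels. In T cells its log2 ratio was -1.87 in the libraries labelled Δ/Δ and 2.94 in those labelled f/f. Over all kept cells it was -1.09 under Δ/Δ and 2.49 under f/f. The difference was not tested, since each ratio is 1 library against 1. In f/f AraC + Dox the Gzma UMIs of T cells lay in 6 cells, and without the T cell of each library with most of its UMIs the ratios in T cells were -2.17 under Δ/Δ and 2.91 under f/f. Leaving out 1 cell covers only part of this. The 3 T cells with most Gzma UMIs held 81.8% of them in Δ/Δ AraC + Dox, 45.8% in Δ/Δ PBS, 80.5% in f/f AraC + Dox and 88.2% in f/f PBS. In Δ/Δ AraC + Dox, Gzma was also not detectable above background by share of T cells.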

How the results depend on the processing

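The number of the 8 genes called, and of all genes called in the Cd8 comparison, depended on the settings, and the cause was not tested. Over all kept cells, Δ/Δ PBS over f/f PBS had 3 calls, 6 with doublets kept, 6 with every barcode and 7 at 1.5-fold, where 2868 of 13942 genes were called higher and 1410 lower (2-fold: 1588 and 777; doublets kept: 1607 and 783; every barcode: 1675 and 774). Δ/Δ AraC + Dox over f/f AraC + Dox had 0, against 2, 2 and 5 under the same settings (1.5-fold: 3175 genes higher and 1909 lower of 13960), and Δ/Δ AraC + Dox over Δ/Δ PBS had 4 and 7 at 1.5-fold (962 and 1751 of 14274). In T cells, Δ/Δ PBS over f/f PBS had 1 call, lower, and 7 at 1.5-fold, 1 higher and 6 lower (378 and 326 of 6976 genes). It had 2, both lower, with doublets kept, every barcode, 3 Cd3 UMIs or neutrophil-rich T cells left out. With the top cell left out (added after seeing the data) it had 1 higher and 1 lower. With 1 Cd3 UMI its 1 call was higher, not lower. Δ/Δ AraC + Dox over f/f AraC + Dox had 3, 1 with 1 Cd3 UMI (623 and 390 of 8361) and 5 without neutrophil-rich T cells (161 and 243 of 5337). Δ/Δ AraC + Dox over Δ/Δ PBS had 2 and 5 with 1 Cd3 UMI (246 and 282 of 9309). HM had 1, 4 at 1.5-fold (573 and 1156 of 10070) and 2 with 1 or 3 Cd3 UMIs, 1 higher and 1 lower in each. In the Cd8 comparison, edgeR called 0 of the 8 and 7 genes in all. It called 0 and 2 without the replicate block, 1 and 26 with DESeq2 size factors, 3 and 180 without the filter, 2 and 47 with doublets kept, 2 and 36 at 2 Cd8 UMIs, and 1 and 40 without neutrophil-rich T cells (added after seeing the data), while DESeq2 called 2 and 74. HM PBS had too few cells for these last 2 edgeR settings. Leaving out 1 library at a time gave 0 to 1 of the 8 and 2 to 36 genes: 36 without f/f AraC + Dox, 32 without HM PBS, 13 without f/f PBS, 4 without HM AraC + Dox, and 2 without either Δ/Δ library. Of 318 single ratios in T cells, 284 moved by less than their interval. HM PBS T cells, at 43, limit what its rarer genes can show.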
